A study of Rattus norvegicus with 6 samples.

Results

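The insulin-like growth factor (IGF) genes measured in isolated rat islets were the ligands Igf1 and Igf2, the receptors Igf1r and Igf2r, and the binding proteins Igfbp2, Igfbp3, Igfbp4, Igfbp5, Igfbp6 and Igfbp7. These 10 genes, of 13903 named on the array, were found through the RefSeq accession of each probe, and each gene was read from its brightest probe. In all 13 probes carried these names, of which Igf1 had 4 and every other gene 1. The islets came from male Wistar rats, a group of 3 animals aged 12 months and a group of 3 aged 3 months. They were released from the pancreas by collagenase digestion, and their RNA was hybridised in a single colour to Arraystar arrays, 1 array per sample. All animals shared sex and strain, and no treatment was given in the labels, so age was the only labelled difference between the groups. The names of 4 arrays, drawn from both ages, shared an ending, and these arrays were also fitted alone.

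IGF1 and IGF2 are small secreted peptides related to insulin that act mainly through the tyrosine kinase receptor IGF1R. IGF2R, also the mannose 6-phosphate receptor for lysosomal enzymes, takes up IGF2 for degradation and carries no kinase. The IGF-binding proteins hold the ligands in blood and tissue fluid and set how much of them reaches the receptors, and in islets the ligands are known for promoting beta cell growth and survival.

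Each age group was read in a scan of its own, and for these genes the effect of the scan and the effect of age cannot be told apart. At 3 months between 73.1% and 77.5% of the probes were well above background by the scanner software, against 59.5% to 64.2% at 12 months, and the median of the negative control spots was 29.5 to 31 scanner units at 3 months and 89.5 to 91 at 12 months. Islet RNA was a mixture of cell types, and fewer cells of a type and less RNA per cell cannot be told apart. The hormone genes Ins1, Ins2, Gcg, Sst and Ppy were well above background on all 6 arrays, as were the acinar genes Cpa1 and Pnlip. Values below are quantile-normalised log2 signals, a difference is 12 months minus 3 months on that scale, and adjusted p-values are those of limma with the Benjamini-Hochberg method over 17941 probes. Levels of different genes were not compared, since every gene was read by another probe.

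Of the 10 genes, 8 were well above background on all 6 arrays and were tested, and none reached an adjusted p below 0.05 in limma, a level that 8.37% of all probes passed.. The clearest differences were towards higher values at 12 months for Igfbp3 (2.02-fold), Igfbp4 (1.80-fold) and Igf2r (1.77-fold). These were the 3 genes with an unadjusted limma p below 0.05, a count of 3 of 8 beside 32.4% of all probes, so that the share was near that of the whole array. A fold change above 2 together with an unadjusted p below 0.05, the threshold of the study's methods, was passed by 1 of the 8, Igfbp3, and by 22.0% of all probes. The arrays of the ages did not overlap for 4 genes with higher values at 12 months, beside 16.5% of all probes, and for 1 gene with lower values, beside 22.6% of all probes.

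**Figure D1:**
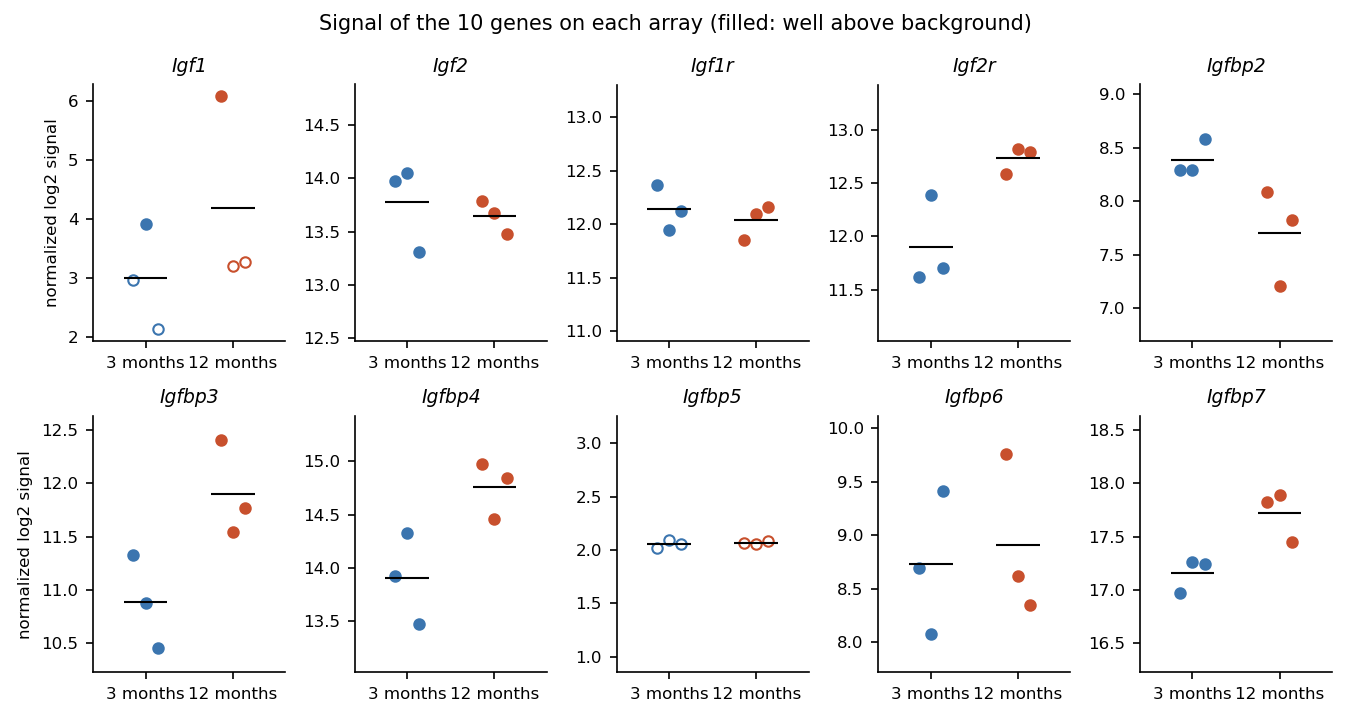
Normalised log2 signal (vertical axis, a separate scale in each panel) of the 10 genes on each of the 6 arrays, grouped by age. Filled points are arrays on which the probe was well above background, open points the others, and horizontal bars the group means. The 12-month arrays of Igf2r, Igfbp3, Igfbp4 and Igfbp7 all lie above the 3-month arrays, those of Igfbp2 lie below, and Igf1 and Igfbp5 have open points on most or all arrays.

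Among the ligands, Igf2, the fetal growth factor that persists in adult rodent islets, was measured on every array. Its signals were 13.78, 13.68 and 13.47 at 12 months and 13.98, 14.05 and 13.31 at 3 months. The lowest and the highest value both belonged to 3-month arrays, and the 12-month arrays lay between them. The means were 13.64 ± 0.16 (SD, n = 3) and 13.78 ± 0.41 (SD, n = 3), with a difference of -0.13 (SE 0.28, 95% confidence interval -0.81 to 0.54, limma adjusted p = 0.764).

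Igf1, the growth hormone-dependent ligand, was well above background on 1 array of each age and was not tested. On its brightest probe the signals were 6.08, 3.20 and 3.27 at 12 months and 2.97, 3.91 and 2.13 at 3 months. The first 12-month array and the second 3-month array were those above background, and the first 12-month array stood well over the others. Its background-subtracted signal there was 119 scanner units, against 2.4 to 14.6 on the other 5 arrays. The other 3 Igf1 probes did not repeat that reading, being well above background on 1, 0 and 1 arrays, in both cases the second 3-month array.

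Of the receptors, the signalling receptor Igf1r showed little difference. Its signals were 11.85, 12.10 and 12.16 at 12 months and 12.37, 11.94 and 12.12 at 3 months, and the ages overlapped. The difference was -0.11 (SE 0.24, 95% confidence interval -0.67 to 0.46, limma adjusted p = 0.775), between means of 12.04 ± 0.17 and 12.14 ± 0.21 (SD, n = 3 each).

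The clearance receptor Igf2r had signals of 12.58, 12.82 and 12.79 at 12 months and of 11.62, 12.39 and 11.70 at 3 months. All 12-month arrays were higher than all 3-month arrays, by 0.19 between the nearest pair, and the second 3-month array was the closest to the older group. The means were 12.73 ± 0.13 and 11.91 ± 0.42 (SD, n = 3 each). The difference of 0.83 (SE 0.28, 95% confidence interval 0.15 to 1.50) did not pass the test (limma adjusted p = 0.106), and an exact two-sided permutation test gave p = 0.1, the smallest that 3 arrays against 3 allow.

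The receptors were also set against each other within each array, in 1 of 4 such contrasts chosen after the values had been seen. Igf2r minus Igf1r was 0.73, 0.72 and 0.63 at 12 months and -0.74, 0.45 and -0.42 at 3 months. The ages did not overlap, and the contrast moved by 0.93 (exact permutation p = 0.1, Benjamini-Hochberg adjusted 0.133 over the 4 contrasts) on normalised signals and by 0.89 on signals without normalisation. The contrast shows only that the signals of the probes differed unequally between the ages.

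Igfbp3, the main IGF carrier of adult serum, had the largest difference of the 8 genes tested. It gave signals of 12.40, 11.54 and 11.77 at 12 months and of 11.32, 10.88 and 10.46 at 3 months. The first 12-month array was the highest and the third 3-month array the lowest, and a gap of 0.22 separated the ages. Means were 11.90 ± 0.45 and 10.89 ± 0.43 (SD, n = 3 each), a difference of 1.02 (SE 0.34, 95% confidence interval 0.20 to 1.84, limma adjusted p = 0.102). Without the first 12-month array the difference was 0.77 and without the third 3-month array 0.80, and in either case its fold change no longer exceeded 2.

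Igfbp4, a binding protein that mostly inhibits IGF action until it is cleaved by pappalysins, followed with signals of 14.97, 14.46 and 14.84 at 12 months and 13.92, 14.33 and 13.48 at 3 months. The second array of each age lay closest to the other age, with 0.13 between them. The difference was 0.85 (SE 0.30, 95% confidence interval 0.13 to 1.57, limma adjusted p = 0.113), between means of 14.76 ± 0.27 and 13.91 ± 0.43 (SD, n = 3 each). With arrays aligned on their 75th percentile it was 0.49.

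Igfbp7, a secreted protein of vessel walls and stroma with low affinity for IGFs, had signals of 17.83, 17.88 and 17.44 at 12 months and 16.97, 17.27 and 17.24 at 3 months. The ages did not overlap, with a gap of 0.18, and the third 12-month array was nearest to the younger group. The means of 17.72 ± 0.24 and 17.16 ± 0.16 (SD, n = 3 each) differed by 0.56 (SE 0.24, 95% confidence interval -0.02 to 1.14, limma adjusted p = 0.164), a 1.47-fold higher signal. When arrays were aligned on their 75th percentile, this difference was 0.13.

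Igfbp2, a binding protein that is prominent in fetal tissue, was the one gene whose 12-month values all lay below the 3-month values. Its signals were 8.08, 7.21 and 7.83 at 12 months and 8.29, 8.29 and 8.58 at 3 months. Every 12-month array was lower than every 3-month array, by 0.21 at the closest, and the second 12-month array was the lowest. The difference was -0.68 (SE 0.30, 95% confidence interval -1.39 to 0.023, limma adjusted p = 0.164), between means of 7.71 ± 0.45 and 8.39 ± 0.17 (SD, n = 3 each). Without the second 12-month array the difference was -0.43.

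Igfbp6, which prefers IGF2 to IGF1, varied most within the ages among the 8 tested genes. Signals were 9.76, 8.62 and 8.35 at 12 months and 8.69, 8.07 and 9.41 at 3 months, so that the ages overlapped widely. The difference was 0.18 (SE 0.49, 95% confidence interval -0.99 to 1.35, limma adjusted p = 0.813). Igfbp5, a binding protein held in extracellular matrix, exceeded background by the scanner's criterion on 0 of 6 arrays and had no measured difference.

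The binding proteins that differed in opposite directions were compared within each array in another of the contrasts chosen after the values had been seen. Igfbp3 minus Igfbp2 was 4.32, 4.33 and 3.94 at 12 months and 3.03, 2.59 and 1.88 at 3 months. It was higher on every 12-month array, by 1.70 on average (exact permutation p = 0.1, Benjamini-Hochberg adjusted 0.133) and by 1.66 without normalisation. This outcome was fixed in advance, since each gene already separated the ages and in opposite directions. The p-value therefore adds nothing to the results of the single genes. Igfbp3 minus Igf2 moved by 1.15 with no overlap (exact permutation p = 0.1), whereas Igfbp4 minus Igfbp6 overlapped between the ages and moved by 0.67 (exact permutation p = 0.5).

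**Figure D2:**
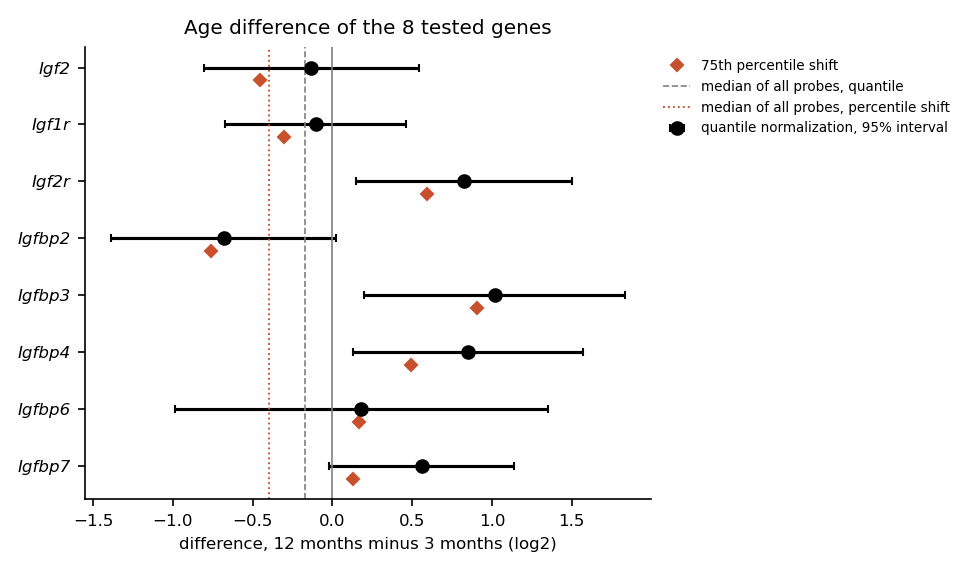
Difference in log2 signal, 12 months minus 3 months (horizontal axis), of the 8 tested genes with 95% confidence intervals from limma (black), beside the same differences under the 75th percentile shift (orange). Vertical lines mark 0 and the median of all probes under each scaling, -0.17 and -0.40. The intervals of Igf2r, Igfbp3 and Igfbp4 lie above 0, whereas those of the other 5 genes include it.

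The median difference of the 8 genes was 0.37, beside -0.13 over all genes tested and -0.17 over all probes tested. Over the probes well above background on all 6 arrays, as the 8 genes were, it was -0.08. With the 75th percentile shift the median of all probes was -0.40, so that differences were also read relative to that median. On that reading Igfbp3 stood at 1.19 under quantile normalisation and 1.30 under the percentile shift, Igf2r at 1.00 and 0.99, Igfbp4 at 1.02 and 0.89, Igfbp7 at 0.73 and 0.53, and Igfbp2 at -0.51 and -0.36. These 5 genes kept their direction under both scalings. Igfbp6, at 0.35 and 0.57, and Igf1r, at 0.065 and 0.097, also kept theirs, so this reading does not set the 5 genes apart. Igf2 moved from 0.039 to -0.057 and had no settled direction.

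**Figure D3:**
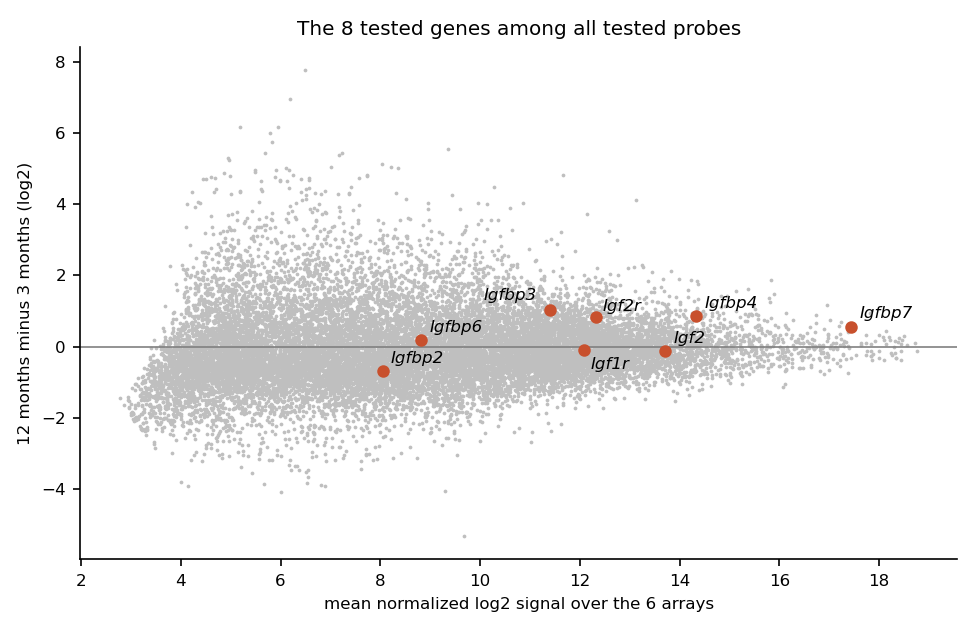
Difference in log2 signal (vertical axis, 12 months minus 3 months) against mean log2 signal (horizontal axis) for all probes tested, with the 8 genes named. The genes lie within the cloud of probes, Igfbp3 at 1.02 and Igfbp2 at -0.68 being the outermost of them.

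A wider list of 60 genes of the IGF system held 40 that were tested, and 8 of them passed an adjusted p of 0.05, 4 with higher and 4 with lower values at 12 months. Of the 4 lower genes, 2 (Igfbpl1 and Hmga2) were well above background on none of the 12-month arrays and had mean 3-month signals under the mean detection limit of those arrays, so that no decrease can be read from them. Of the 4 higher genes, Ghr and Adam9 were well above background on only 1 of 3 arrays at 3 months. They passed the filter through the 12-month arrays, where they were higher. The count of 8 thus rests partly on genes admitted by 1 age, and with the filter on all 6 arrays it was 3. Over all 11201 genes tested on the array 7.86% passed, and the list median was -0.19 (-0.12 with such genes at their detection bound) beside -0.13 over those genes. The list was drawn up with earlier results of these arrays known, and leaving out single arrays gave between 1 and 6 called genes, with Ghr alone left when the first or the third 12-month array was removed.

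In the growth hormone input to IGF1, the receptor gene Ghr rose by 6.95 (limma adjusted p = 0.0045), a size that rests on 3-month signals of which only 1 of 3 was well above background. Signals were 9.41, 8.57 and 11.02 at 12 months and 2.26, 3.54 and 2.35 at 3 months, and with normexp background correction the difference was 3.54 (limma adjusted p = 0.0151). Jak2, the kinase bound to that receptor, rose by 1.66 (limma adjusted p = 0.0193). Socs3, which dampens cytokine receptor signals, fell by 1.27 (limma adjusted p = 0.0368). These 3 genes were called under both other scalings of the signal. With single arrays left out, Ghr was called each time. Jak2 was called only without the second 12-month or the second 3-month array, and Socs3 only without the second 12-month array.

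Among other carriers and proteases, Adam9, a membrane metalloprotease, had a difference of 3.62 (limma adjusted p = 0.0415) with 1 of 3 arrays above background at 3 months, and with normexp correction the difference was 1.46 and was not called (limma adjusted p = 0.107). Stc2, a secreted inhibitor of the pappalysins, fell by 1.09 (limma adjusted p = 0.0461), with 2 of 3 arrays well above background at 12 months. Its difference with normexp correction was -0.59 (limma adjusted p = 0.0489), and it was not called with any single array left out. Igfbpl1, a relative of the binding proteins, was well above background on none of the 12-month arrays, and no fold is given. Igfbp1, named although it was outside the rule for naming genes, had a difference of -0.65 (limma adjusted p = 0.188). Igfals, which forms the ternary serum complex with IGFBP3, had a difference of -0.52 (limma adjusted p = 0.588), and no probe was matched to Pappa.

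The genes for IGF2 mRNA-binding proteins and their regulator gave 2 tested members, Hmga2 and Igf2bp1. Both were well above background on none of the 12-month arrays. For Hmga2, a chromatin protein that drives Igf2bp2 transcription, the detection limit leaves no fold to give. Igf2bp1, which binds and stabilises IGF2 mRNA, had a mean 3-month signal 1.93-fold above that limit. The limit is the mean, over the 12-month arrays, of the lowest signal counted as well above background. It is not a ceiling for undetected probes, so no minimum fold is given. The test of Igf2bp1 was not passed (limma adjusted p = 0.138). With normexp correction its difference was -0.41 (limma adjusted p = 0.271). No probe was matched to Igf2bp2. Of 16 tested genes of receptor signalling, Foxo3, a transcription factor restrained by AKT, was the only one called, and it rose by 1.23 (limma adjusted p = 0.0440). With normexp correction the Foxo3 difference was 0.45 (limma adjusted p = 0.101). Under that correction Gsk3b (-0.90, limma adjusted p = 0.0411) and Map2k1 (0.62, limma adjusted p = 0.0451) were called instead. Irs1, the docking protein of the receptor, had a difference of 0.04, and the insulin receptor gene Insr was above background on 2 arrays at 3 months and 0 at 12 months and was not tested. Adam9, Foxo3, Hmga2 and Igfbpl1 were not called with either the percentile shift or normexp correction.

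The list of mannose 6-phosphate sorting, the other function of IGF2R, had 8 tested genes and none called. M6pr, the cation-dependent receptor of that pathway, had a difference of 0.35 (limma adjusted p = 0.308), which was -0.007 with the percentile shift.

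**Figure D4:**
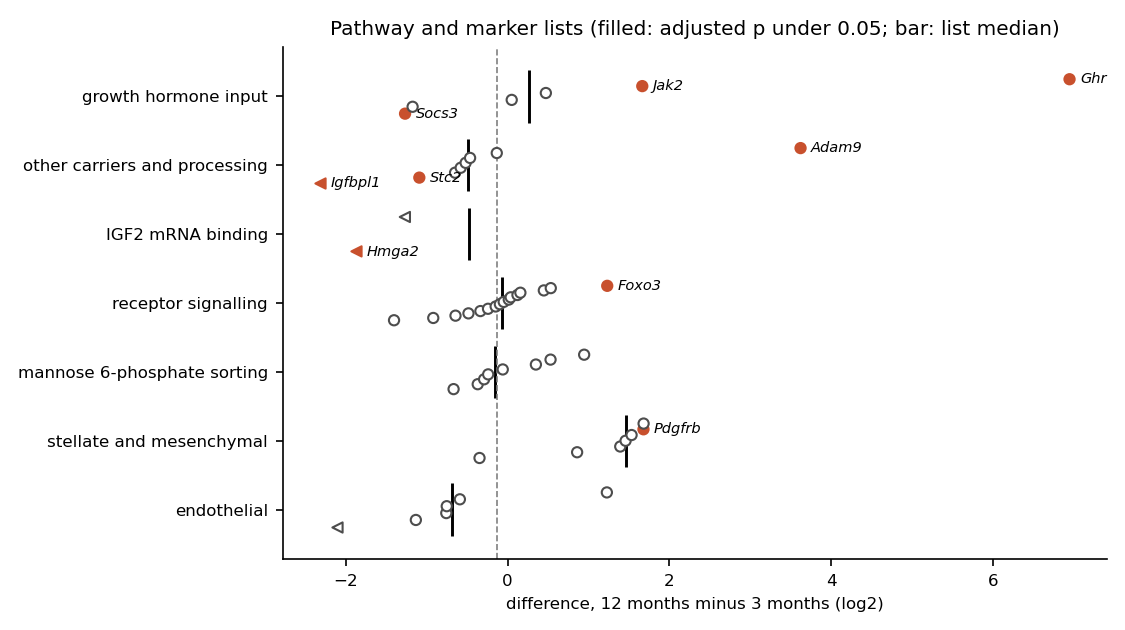
Difference in log2 signal (horizontal axis, 12 months minus 3 months) of each tested gene in the lists of the IGF system and of stromal and endothelial genes, a row per list. Filled points passed the adjusted p, triangles are genes well above background on none of the 12-month arrays, drawn at fitted values that are no measured difference, and the dashed line is the median of all genes, -0.13. Bars mark list medians with the triangle genes at their detection bound, 0.26 for growth hormone input and 1.46 for stellate and mesenchymal genes.

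Levels of genes of other cell types were set beside those of the binding proteins, with 7.86% of all genes called as the background. Of 7 tested genes of stellate and mesenchymal cells, 6 had higher values at 12 months and 1, Pdgfrb, was called (1.68, limma adjusted p = 0.0453), and the list median was 1.46 (1.37 with the percentile shift). Col3a1 had a difference of 1.68 (limma adjusted p = 0.0670), Lum 1.53 (limma adjusted p = 0.104) and Dcn 1.39 (limma adjusted p = 0.0734), whereas Sparc had -0.35. The summed signal of the list was 54556 to 113886 normalised units (log2 signals taken back to the linear scale) at 12 months and 54418 to 62184 at 3 months, and each of its measured genes was well above background on at least 1 array. Sparc had the highest mean signal of the list at both ages (15.09 at 12 months and 15.43 at 3 months). It therefore weighed most in the sum, which does not describe the list as the median does. Endothelial genes had a median difference of -0.76 (-0.69 with Cdh5, not well above background at 12 months, at its bound) with none of 6 called, although Pecam1 had 1.23 (limma adjusted p = 0.124), and the list summed 31498 to 53085 units at 12 months against 56562 to 73892 at 3 months. Plvap, with the highest mean signal of the list at both ages (15.14 and 15.73), weighed most in that sum. Genes of nerve and Schwann cells had lower values at 12 months for 6 of 6 tested, of which 3 (Mbp, Prph and Sox10) were called, with a median of -1.70. The part of these cells in the values of Igfbp3, Igfbp4 and Igfbp7 was not tested.

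The genes whose pattern over the 6 arrays was most like that of Igfbp3, by Pearson's r among 9086 genes, were Dusp14 (r = 0.995), Hopx (r = 0.989) and Pfn1 (r = 0.984). For Igfbp2 they were Idh3b (r = 0.988), Bgn (r = 0.985) and Eln (r = 0.983). Bgn and Eln, which encode matrix proteins, had differences of -0.78 and -0.85. These correlations describe the same 6 arrays, in which scan and age coincide, and carry no test.

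**Figure D5:**
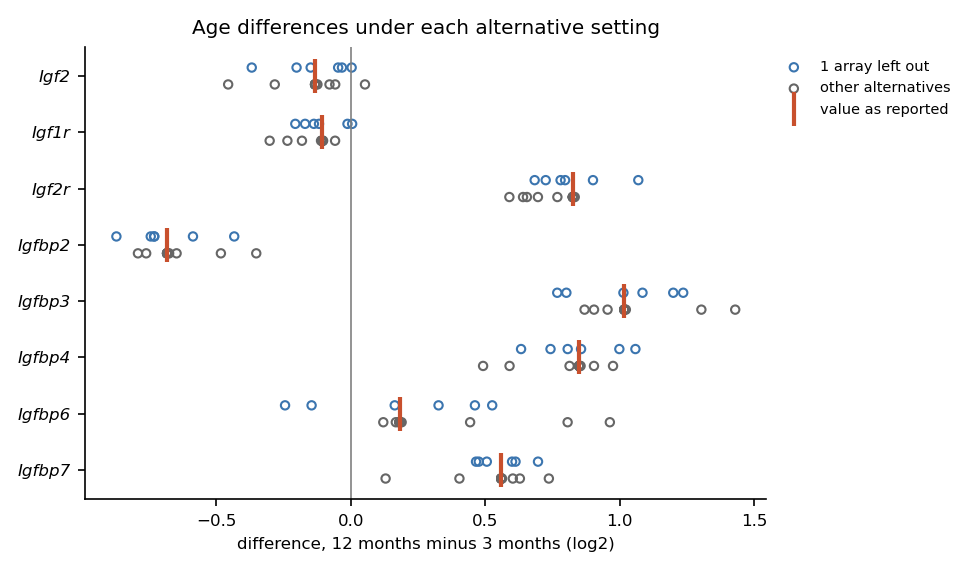
Difference in log2 signal (horizontal axis, 12 months minus 3 months) of the 8 tested genes in the original analysis and in each of 19 alternatives. Igf2r (0.59 to 1.07), Igfbp2 (-0.87 to -0.35), Igfbp3 (0.77 to 1.43), Igfbp4 (0.49 to 1.06) and Igfbp7 (0.13 to 0.74) kept their sign throughout, and Igf2, Igf1r and Igfbp6 crossed 0.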

How the data were processed

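Spot intensities were deposited as scanner output of Agilent Feature Extraction 11.0.1.1, with 1 colour per array, and background-subtracted processed signals were used here. A table of quantile-normalised log2 values deposited by the authors served as an alternative. The filter behind that table is not given in the sources used here. Spots of a probe were averaged, and log2 signals were quantile-normalised over the 6 arrays. Probes well above background on at least 3 of 6 arrays entered limma 3.58.1 in R 4.3.3 (lmFit and eBayes, 12 months against 3 months, no covariate), and p-values were adjusted by the Benjamini-Hochberg method over 17941 probes. This step was also run on simulated data with independent noise and no difference of scan between the groups. That setting is unlike these arrays, so the run says nothing about the scan, and its outcome is not given here.

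Of 15321 mRNA probes, 14274 were named by matching unversioned RefSeq accessions to the GRCr8 gene table. The array was designed on another build, so no coordinates are given. A gene was represented by its brightest probe. All members were named, together with pathway genes called at an adjusted p of 0.05, a few fixed members of each list and the 3 genes most correlated with the most changed members. Members and lists were chosen with earlier results of these data known. The p-values measure the spread between 3 arrays per age, and the number of arrays limits their precision. Alternatives covered scaling, background correction, filters, variance models, pairing, single arrays left out, the methods' t-test on the log2 values and averaging over probes.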

Additional observations from a re-analysis of the deposited data

How the results depend on the processing

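Among 19 alternatives, Igf2r, Igfbp2, Igfbp3, Igfbp4 and Igfbp7 kept their direction. None of the tested IGF genes passed the adjusted threshold, except 3 with array weights (Igfbp3 1.43, Igfbp4 0.97 and Igfbp7 0.63 with limma adjusted p = 0.0166, 0.0261 and 0.0490), and leaving out single arrays gave 0 to 0. The share of all probes passing was not counted under the alternatives. The counts given here for them therefore have no background beside them and cannot be read as a result about these genes. The count at an unadjusted p below 0.05, 3 of 8, was 4 with the methods' t-test and 1 with its paired form (0 after Benjamini-Hochberg adjustment in both), 1 with the percentile shift, 0 with the replicate block on numbered pairs, 5 with the filter on all 6 arrays, and 0 to 2 with single arrays left out (0 without the third 3-month array). With no filter all 10 genes were tested, and the count was 5 of 10. The 1 gene past the study's threshold became 0 with the 75th percentile shift, 0 with normexp correction, 0 with the replicate block on numbered pairs, and 0 to 2 with single arrays left out (0 without the first 12-month or the third 3-month array, 2 without the second 3-month array). The 8 pathway genes called became 4 with the percentile shift, 3 with the filter on all 6 arrays, 5 with trended robust variances, 13 with array weights, 0 with 4 arrays sharing a name ending, 1 with the methods' t-test and 0 with its paired form. With the replicate block they became 0 on numbered pairs and 0 with the third pair set by elimination, and with single arrays left out 1 to 6. Same-numbered arrays did not deviate together (correlations of -0.01 and -0.31, and -0.26 for the third pair, set by elimination). With 3 arrays per age these correlations cannot exclude a pairing, and the study's own p-values came from a paired t-test. The labels state no pairing of animals, so the main fit was left unpaired. Igf2 reversed to 0.053 with 4 arrays and to 0.0036 without the second 3-month array (range with single arrays left out -0.37 to 0.0036), Igf1r to 0.0054 without the first 3-month array (-0.21 to 0.0054), and Igfbp6 to -0.24 without the first 12-month and -0.15 without the second 3-month array (-0.24 to 0.53). Fewer arrays or probes entered the fits that left some out, and otherwise the cause was not tested. Igf1 and Igfbp5 were limited by signal near background.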

Other observations

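The first 12-month array was the highest of its age in several of these genes at once. It carried the highest 12-month value of Igf1 (6.08), Igf2 (13.78), Igfbp2 (8.08), Igfbp3 (12.40), Igfbp4 (14.97) and Igfbp6 (9.76). For Igf1r (11.85) and Igf2r (12.58) it carried the lowest. How often this array was the highest of its age over all probes was not counted. The summed signal of the stellate and mesenchymal genes was 113886 normalised units there, against 54556 and 59486 on the other 12-month arrays. Without that array the difference of Igfbp3 was 0.77, that of Igfbp4 0.74 and that of Igfbp6 -0.24, while that of Igfbp2 was -0.87.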
